A study of Homo sapiens with 4 samples.

Results

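The ID family consists of 4 genes, ID1, ID2, ID3 and ID4, and the open chromatin around them was described in Huh7, a human hepatocellular carcinoma cell line. Peaks were selected by position and by name: a peak belonged to an ID gene if its centre lay within 50 kb of the transcription start site (TSS) of that gene, or if the authors' nearest-gene column named it. Peaks of the different libraries that overlapped by at least 1 bp were merged into regions, and 35 of the 69838 regions of the study belonged to the ID genes. Of these, 12 belonged to ID1, 7 to ID2, 11 to ID3 and 5 to ID4. The 4 genes were taken up because a region downstream of ID1 was already known from these same lists to differ between the genotypes, so the values below are descriptions.

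The assay was ATAC-seq, which marks accessible DNA by letting a transposase cut it and add adapters, with 50000 cells per library. The 4 groups were shARID1A cells in 100 nM rapamycin, shARID1A cells in DMSO, shControl cells in 100 nM rapamycin and shControl cells in DMSO, and the drug was given for 6 h. All 4 groups were Huh7 cells grown with fetal bovine serum, and all carried a short hairpin RNA, aimed at ARID1A in shARID1A cells and serving as the control in shControl cells. ARID1A is a DNA-binding subunit of SWI/SNF, a complex that moves nucleosomes, and rapamycin inhibits the kinase complex mTORC1. The sources used here do not give the number of hairpins or clones, and the level of ARID1A itself was not analysed here. Each group held 1 library, so there was no spread between cultures to compare a difference with, and no test was made.

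ID proteins are helix-loop-helix proteins that lack a DNA-binding region. They bind E proteins, the common partners of tissue-specific basic helix-loop-helix (bHLH) transcription factors, and so keep those factors from DNA. Bone morphogenetic proteins (BMPs) switch ID genes on through SMAD transcription factors, and in hepatocytes ID1 is a textbook BMP target beside hepcidin and SMAD7.

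The promoters of the ID genes are shown first, because all 4 can be compared base by base with the peaks that lay on them. Reference sequences were found for 4 of 4 members in RefSeq (GRCh38.p14). Each line gives the 250 bases before the RefSeq TSS, 5′ to 3′ on the strand of the gene. Capitals mark the CCAAT box, searched on both strands as CCAAT and therefore also seen as ATTGG, and the TATA box core TATAA, searched on the strand of the gene. The windows are chr20:31605039-31605288 on the plus strand for ID1, chr2:8681806-8682055 on the plus strand for ID2, chr1:23559502-23559751 on the minus strand for ID3 and chr6:19837120-19837369 on the plus strand for ID4.
ID1: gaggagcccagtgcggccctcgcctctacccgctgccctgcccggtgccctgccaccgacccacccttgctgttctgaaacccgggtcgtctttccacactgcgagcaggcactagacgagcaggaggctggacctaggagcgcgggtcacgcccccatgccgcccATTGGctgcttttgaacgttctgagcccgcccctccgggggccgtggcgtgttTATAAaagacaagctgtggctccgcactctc
ID2: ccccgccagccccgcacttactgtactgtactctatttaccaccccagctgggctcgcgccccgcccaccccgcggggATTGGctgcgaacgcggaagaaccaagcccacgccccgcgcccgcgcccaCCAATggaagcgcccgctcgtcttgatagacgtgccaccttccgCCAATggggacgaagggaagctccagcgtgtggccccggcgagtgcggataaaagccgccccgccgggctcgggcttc
ID3: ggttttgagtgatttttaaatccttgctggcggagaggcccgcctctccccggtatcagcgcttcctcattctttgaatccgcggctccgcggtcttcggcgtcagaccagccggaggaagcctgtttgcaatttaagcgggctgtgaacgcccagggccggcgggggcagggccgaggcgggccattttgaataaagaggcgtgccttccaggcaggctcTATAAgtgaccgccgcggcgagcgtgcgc
ID4: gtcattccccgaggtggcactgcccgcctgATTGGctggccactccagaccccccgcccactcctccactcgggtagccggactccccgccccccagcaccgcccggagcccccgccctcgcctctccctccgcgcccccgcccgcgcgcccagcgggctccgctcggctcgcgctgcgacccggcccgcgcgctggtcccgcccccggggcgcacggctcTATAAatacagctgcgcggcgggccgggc

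The ID1, ID2 and ID4 windows held a CCAAT box and that of ID3 held none, as counted on both strands. ID1 had 1, starting at position -84 from the TSS, ID2 had 3, at -172, -122 and -78, and ID4 had 1, at -220. A CCAAT box was found in 32.0% of 35116 RefSeq promoter windows of the same length. TATAA stood at -31 in ID1 and at -29 in both ID3 and ID4 but not in the ID2 window, and was found in 13.6% of all windows. The longest run shared by ID1, ID2 and ID4, ATTGGCTG on either strand, overlaps the CCAAT box and was present in 3.52% of windows. It was picked after the sequences had been seen. GGGCGG, the GC box, occurred 2 times in ID1, 2 times in ID2 and 6 times in ID4 but not in ID3, and in 42.6% of windows. An E-box (CANNTG, the site that E proteins bind) was present in ID2 and in ID4, and in 61.8% of windows. For the SMAD motifs, CAGAC on either strand was found in ID3 and ID4 and in 38.0% of windows, while GGCGCC was in none of the 4 and in 16.4% of windows. The TEAD motif GGAATG was in ID4 and in 11.9% of windows. TGANTCA (AP-1, 6.57% of windows) and TGACGTCA (the cyclic AMP response element, 1.65%) were in none of the 4. The windows of all 4 genes were richer in G and C than the median window of 58.0%, with 66.0% in ID1, 69.2% in ID2, 62.0% in ID3 and 78.8% in ID4. The RefSeq start of the antisense gene ID2-AS1 lies in the ID2 window too, so a peak there belongs to both genes. A motif match describes the letters of the window and is not a measured binding site.

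The lists held 44760 peaks in shARID1A rapamycin, 45700 in shARID1A DMSO, 49783 in shControl rapamycin and 52192 in shControl DMSO. Read depth was unknown, and the lists covered 35.1, 38.3, 40.7 and 39.9 Mb in the same order. Peak numbers within a list ran without a break in shARID1A rapamycin and shControl DMSO but skipped 6666 numbers (12.7%) in shARID1A DMSO and 1093 (2.15%) in shControl rapamycin. No list skipped a number around ID1 or ID3. Around ID2 shARID1A DMSO skipped 2, all beyond its most distant downstream peak, and around ID4 shARID1A DMSO skipped 4 and shControl rapamycin 2. The liver identity of the line was checked by promoter peaks of hepatocyte markers. HNF4A, APOA1, APOB, SERPINA1 and TF had one in all 4 lists, TTR in shARID1A rapamycin alone, and ALB, AFP, FGB and FOXA2 in none. Within 50 kb, TTR had 1 peak in each list, and ALB, AFP, FGB and FOXA2 each had between 4 and 9. A promoter peak was called by a centre within 1 kb of a TSS. A missing call thus does not show that a gene lacked open chromatin nearby. Of all 18370 protein-coding genes with a TSS, 12543, 12714, 12590 and 12512 held a promoter peak in the order of the lists above. Of the leukocyte markers, CD14 and CD68 had a promoter peak in each list and PTPRC and CD3E in none. Endothelial markers had them at 0 of the 4 genes that could be given a TSS. Fibroblast and stellate cell markers had them at 2, 3, 2 and 2 of 4 genes in shARID1A rapamycin, shARID1A DMSO, shControl rapamycin and shControl DMSO, with PDGFRB at 0. Their summed peaks within 50 kb lay between 11 and 14 in the 4 lists, and those of endothelial markers between 7 and 10. Those of the 4 leukocyte markers named lay between 16 and 21 and those of the 10 hepatocyte markers named between 47 and 61. These sums cover unequal numbers of genes, and a peak near several genes counts for each. They cannot be compared directly between marker sets and do not settle the liver identity of the line. The median over all genes was 3.0 peaks in each list.

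Most regions around the ID genes were open in every library. A region counted as open in a list if it held a peak of that list, and 22 of the 35 ID regions (62.9%) were open in all 4 lists, against 31585 of 69838 regions (45.2%) in the whole study. Distal regions, centred over 1 kb from every RefSeq TSS, gave 14 of 25 (56.0%) around the ID genes, against 19191 of 55011 (34.9%) overall. A region open in fewer cells and a region less open in each cell cannot be told apart in such data. The genes differed among themselves: 10 of 11 regions were open in all lists at ID3, 6 of 12 at ID1, 4 of 7 at ID2 and 2 of 5 at ID4. The ID genes together held 28 peaks in shARID1A rapamycin, 30 in shARID1A DMSO, 28 in shControl rapamycin and 32 in shControl DMSO. ID1 contributed 8, 11, 9 and 11 of these in the same order, ID2 5, 6, 5 and 5, ID3 10, 10, 10 and 12, and ID4 5, 3, 4 and 4.

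**Figure D1:**
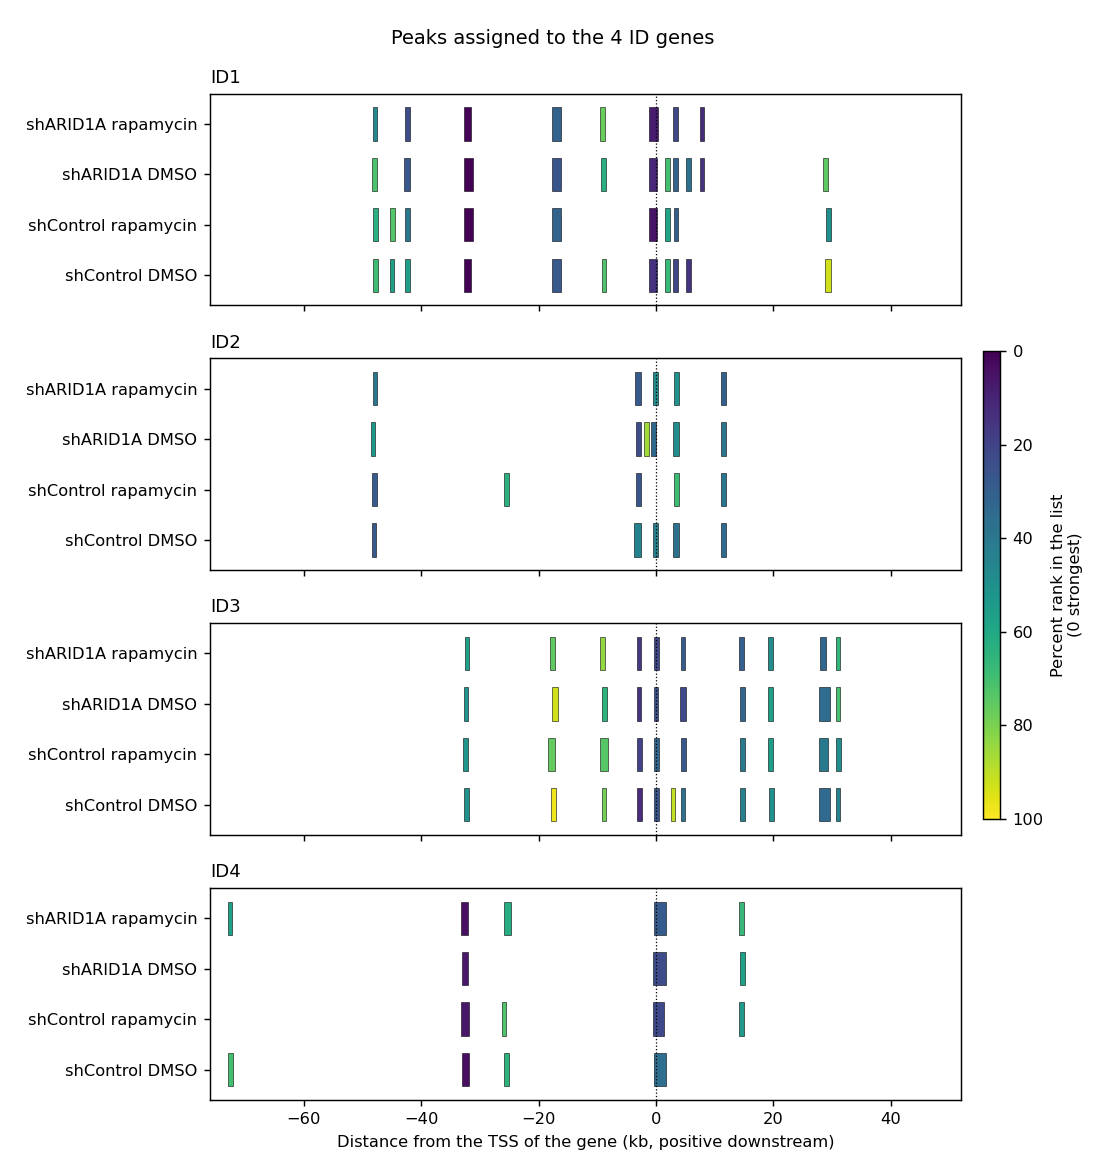
Peaks assigned to the 4 ID genes, with distance from the TSS in kb on the horizontal axis (positive downstream of the gene's own strand) and 1 row per library. Each box spans the peaks of a region in a list, coloured by the best percent rank (0 strongest), and boxes too narrow to see are widened. The region 28.7 kb downstream of ID3 held 2 peaks in shControl DMSO, drawn as 1 box. Of 11 regions at ID3, 10 are open in all 4 lists, against 6 of 12 at ID1.

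Strength was compared by rank. Within a list, peaks were ordered by the authors' deposited score, and the percent rank is the rank in percent of the list length, so that 0 is the strongest end and 100 the weakest. Among the promoters of the 4 ID genes, that of ID1 was the strongest in each list. Its peak (region at chromosome 20, 31604076 to 31605548) had a percent rank of 8.02 in shARID1A rapamycin, 11.6 in shARID1A DMSO, 5.39 in shControl rapamycin and 14.3 in shControl DMSO. All 4 peaks covered the whole 250-base window printed above, CCAAT and TATA boxes included.

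The ID3 promoter (chromosome 1, 23559214 to 23559707) stood at 21.4 in shARID1A rapamycin, 24.9 in shARID1A DMSO, 32.1 in shControl rapamycin and 26.1 in shControl DMSO. Its peaks covered 205, 206, 181 and 203 of the 250 bases in the same order. The ID4 promoter (chromosome 6, 19836851 to 19839137), under the broadest of the 4 promoter regions, stood at 28.9, 22.8, 21.5 and 35.8 in that order and its peaks covered all 250 bases. The ID2 promoter (chromosome 2, 8681152 to 8682134) was the weakest in each list that held it, at 48.7 in shARID1A rapamycin, 33.6 in shARID1A DMSO and 44.1 in shControl DMSO. It held no peak in shControl rapamycin, and that list skips no number around ID2. Of its 250 bases, 223 lay in a peak in shARID1A rapamycin, 250 in shARID1A DMSO, 0 in shControl rapamycin and 228 in shControl DMSO.

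**Figure D2:**
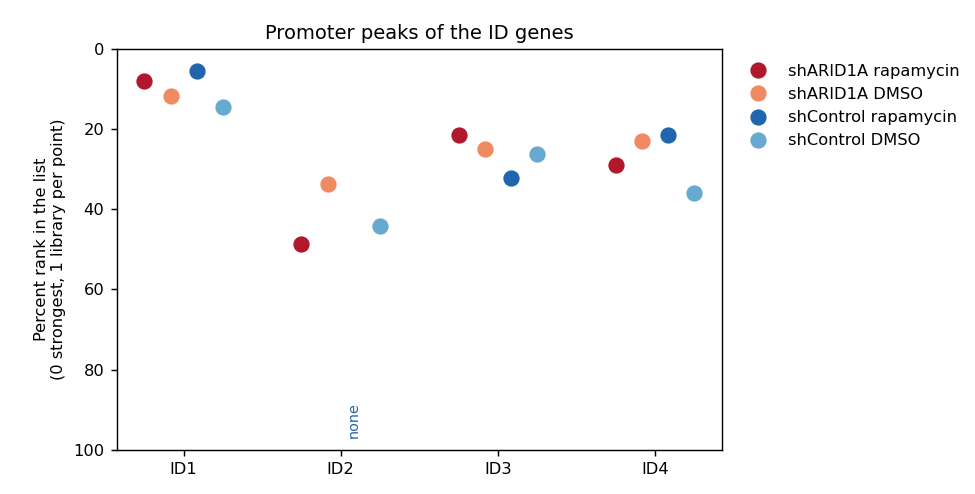
Percent rank of the promoter peak of each ID gene, with 0 (strongest) at the top of the vertical axis and 1 point per library. The ID1 points lie between 5.39 and 14.3, above those of the other genes, and the word none marks the ID2 promoter in shControl rapamycin.

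At ID1, which had 12 regions, a region 7.8 kb downstream of the TSS was open in shARID1A cells and not in shControl cells. This region (chromosome 20, 31612888 to 31613301, GRCh38) was intergenic per the authors' annotation, and the peaks were 406 bp wide in shARID1A rapamycin and 407 bp wide in shARID1A DMSO. It ranked 5451 of 44760 in shARID1A rapamycin (percent rank 12.2) and 6969 of 45700 in shARID1A DMSO (15.2), close to the ID1 promoter in strength. It held no peak in shControl rapamycin or shControl DMSO, and neither list skips a number there. The authors' nearest-gene column named the microRNA gene MIR3193, which lies between ID1 and the region, and not ID1.

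The region next to it differed by treatment instead. Centred 5.5 kb downstream of ID1 (31610630 to 31610964), it was open in shARID1A DMSO at percent rank 36.8 and in shControl DMSO at 15.4, and held no peak in either rapamycin list. At 3.3 kb downstream, a region was open throughout, at 21.2 in shARID1A rapamycin, 31.2 in shARID1A DMSO, 29.9 in shControl rapamycin and 20.7 in shControl DMSO. The regions at 1.9 kb and 29.1 kb downstream were absent from shARID1A rapamycin alone. At 1.9 kb, annotated as the promoter of MIR3193, percent ranks were 70.3 in shARID1A DMSO, 58.4 in shControl rapamycin and 67.3 in shControl DMSO. At 29.1 kb, nearest to COX4I2, a subunit gene of cytochrome c oxidase, they were 75.3, 49.4 and 92.6 in the same order. Downstream of ID1, shARID1A rapamycin thus held 2 peaks (at 3.3 and 7.8 kb), shARID1A DMSO 5, shControl rapamycin 3 and shControl DMSO 4.

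**Figure D3:**
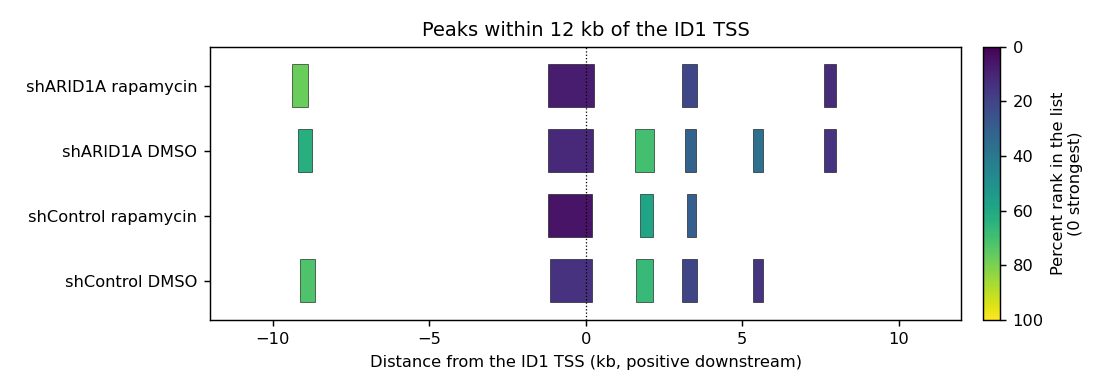
Peaks within 12 kb of the ID1 TSS, with distance in kb on the horizontal axis, 1 row per library and colour for percent rank (0 strongest). The box at 7.8 kb appears in the shARID1A rows alone, at percent ranks 12.2 and 15.2, and the box at 5.5 kb in the DMSO rows alone, at 36.8 in shARID1A and 15.4 in shControl.

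Upstream of ID1, the region at -45.0 kb (31560101 to 31560528), in an intron of HM13, the gene of signal peptide peptidase, had the converse pattern to that at 7.8 kb. It was open in shControl rapamycin at 72.9 and in shControl DMSO at 57.0, and held no peak in either shARID1A list. Both values lie in the weaker 50% of their lists, unlike those of the region downstream. The region at -9.0 kb (31595897 to 31596642) was open at 77.2 in shARID1A rapamycin, 63.0 in shARID1A DMSO and 71.9 in shControl DMSO, and absent from shControl rapamycin. The strongest region in the window was that of the antisense gene HM13-AS1 at -32.0 kb, within the strongest 1% of each list at 0.972, 0.635, 0.546 and 0.567 in shARID1A rapamycin, shARID1A DMSO, shControl rapamycin and shControl DMSO. At -42.4 kb, annotated as the promoter of HM13-IT1, percent ranks were 22.7 and 27.3 in shARID1A rapamycin and DMSO and 40.0 and 55.6 in shControl rapamycin and DMSO, so that both shARID1A lists placed it stronger. The regions at -17.0 and -48.0 kb were open throughout, between 26.1 and 31.4 and between 47.1 and 71.5.

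ID2 had 7 regions. Besides its promoter, 2 of them were open in 1 list each: the region at -1.7 kb in shARID1A DMSO, at 85.9, and that at -25.4 kb in shControl rapamycin, at 63.8. The other 4 were open in all lists. The region at 11.4 kb downstream stood at 30.2 in shARID1A rapamycin, 38.7 in shARID1A DMSO, 39.4 in shControl rapamycin and 34.4 in shControl DMSO. The region at -3.2 kb, annotated by the authors as a promoter of ID2 or of its antisense gene ID2-AS1 depending on the list, stood at 27.8, 22.7, 25.9 and 43.6 in the same order, and was weakest in shControl DMSO. At 3.4 kb downstream the values were 51.3, 48.5, 68.6 and 36.9, so the shControl lists lay on either side of the shARID1A lists. At -48.1 kb they were 39.3 and 53.8 in shARID1A rapamycin and DMSO and 28.3 and 27.5 in shControl rapamycin and DMSO, with both shARID1A lists placing it weaker.

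ID3 had the most even neighbourhood, with 10 regions open in all 4 lists. The exception, 2.9 kb downstream of the TSS, had a peak in shControl DMSO alone, at percent rank 91.0. The strongest region was not the promoter but a distal region 2.8 kb upstream (23562033 to 23562628), at 16.5 in shARID1A rapamycin, 14.9 in shARID1A DMSO, 19.9 in shControl rapamycin and 12.8 in shControl DMSO. The promoter of the neighbouring gene E2F2, a cell-cycle transcription factor, lay 28.7 kb downstream and stood at 33.2, 35.3, 40.4 and 34.2 in the same order. In the first intron of E2F2, at 31.0 kb, percent ranks were 65.4 and 70.7 in shARID1A rapamycin and DMSO against 49.0 and 43.5 in shControl rapamycin and DMSO. At 14.7 kb the direction was the opposite, with 29.8 and 32.1 in shARID1A rapamycin and DMSO against 40.9 and 43.2 in shControl rapamycin and DMSO. The region at 4.6 kb stood at 28.4 in shARID1A rapamycin, 22.2 in shARID1A DMSO, 27.6 in shControl rapamycin and 36.8 in shControl DMSO. The other 4 regions had percent ranks between 48.6 and 97.3, the weakest being that at MDS2, at -17.6 kb, at 75.6 in shARID1A rapamycin, 92.8 in shARID1A DMSO, 75.8 in shControl rapamycin and 97.3 in shControl DMSO.

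ID4 had 5 regions, and 3 of them differed between lists. The strongest, open in all lists, lay at -32.6 kb, at the promoter of the non-coding gene AL022068.1, at 4.18 in shARID1A rapamycin, 6.31 in shARID1A DMSO, 6.26 in shControl rapamycin and 3.66 in shControl DMSO. The region at 14.7 kb downstream stood at 67.1, 57.4 and 53.9 in shARID1A rapamycin, shARID1A DMSO and shControl rapamycin and had no peak in shControl DMSO. The region at -25.4 kb stood at 62.0 in shARID1A rapamycin, 72.4 in shControl rapamycin and 64.6 in shControl DMSO and had no peak in shARID1A DMSO, a list that skips numbers in that interval (19805326 to 19836901). At -72.6 kb (19764540 to 19765079), a region included by name stood at 57.2 in shARID1A rapamycin and 69.8 in shControl DMSO, and had no peak in shARID1A DMSO or shControl rapamycin.

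At the limit of the 50 kb windows, regions just inside and just outside were as follows. For ID1 the outermost region inside, at 48.0 kb, was described above, and the nearest outside, at 56.6 kb, stood at 11.2 in shARID1A rapamycin, 6.76 in shARID1A DMSO, 20.9 in shControl rapamycin and 12.9 in shControl DMSO. For ID2 the limit fell between 48.1 and 54.6 kb, and the region outside was open in all 4 lists, between 34.6 and 48.3. For ID3 it fell between 32.4 and 60.5 kb, and the region outside was weak, at 90.0, 82.1 and 88.9 in shARID1A rapamycin, shARID1A DMSO and shControl rapamycin and without a peak in shControl DMSO. For ID4 the nearest region left out lay 80.0 kb away and was open in shControl rapamycin alone, at 61.4.

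Rapamycin-treated and DMSO-treated cells were each compared between genotypes. In DMSO, shARID1A cells lacked 4 of the 32 ID peaks of shControl cells (12.5%, exact binomial 95% interval 3.51 to 29.0, counting error only), where 27.6% of all shControl peaks were lost. Such an interval takes the peaks as independent, although they are neighbours around the ID genes, and it is no test of the family. A lost peak is one of shControl with no overlap in the shARID1A list, and a gained peak is the converse. The lost peaks were those at ID1 -45.0 kb, ID3 2.9 kb, ID4 -25.4 kb and ID4 -72.6 kb. All 4 were distal, out of 22 distal ID peaks, and 35.7% of all distal peaks were lost. Of the 30 ID peaks of shARID1A cells, 3 were gained (10.0%, 2.11 to 26.5), against 17.7% of all peaks. They were at ID1 7.8 kb, ID2 -1.7 kb and ID4 14.7 kb, 3 of 21 distal ID peaks, against 22.6% of all distal peaks. ID1 7.8 kb is the region for which the genes were taken up, and it counts as gained here and under rapamycin. At ID3, 0 of 10 were gained. Both ID4 peaks lost lie in intervals where shARID1A DMSO skips numbers.

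Ranks could be compared in DMSO for the 27 ID regions open in both lists. A shift of at least 10 percentage points was counted, as shARID1A minus shControl, so a positive difference is a weaker rank in shARID1A. Of the 27, 5 (18.5%) were weaker in shARID1A, against 27.8% of the 37312 regions of the study open in both lists, and 8 (29.6%) were stronger, against 12.6%. The largest shift was at ID1 -42.4 kb, stronger by 28.3 points, followed by ID3 31.0 kb with a difference of 27.2 and ID2 -48.1 kb with 26.3. The promoters of ID4 (difference -13.1) and ID2 (-10.5) were stronger in shARID1A DMSO, and those of ID1 and ID3 shifted by less than 10 points. The median difference was 0.07 points over the ID regions and 2.17 over all regions. The lists differ in length, and weak peaks added to the longer shControl lists move their shared regions to lower percent ranks. With the strongest 44760 peaks of each list, an alternative added after the data were seen, 3 of 25 ID regions were weaker in shARID1A, against 19.3% of all regions, and 8 were stronger, against 21.2%. ID2 3.4 kb (a difference of 6.6) and ID1 3.3 kb (7.7) were then no longer among the weaker ones.

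Under rapamycin, shARID1A cells lacked 4 of the 28 ID peaks of shControl cells (14.3%, 4.03 to 32.7), against 26.7% of all peaks. These were at ID1 -45.0, 1.9 and 29.1 kb and at ID2 -25.4 kb, and 3 of 19 distal ID peaks were among them, against 34.6% of all distal peaks. Another 4 of 28 ID peaks were gained (14.3%, 4.03 to 32.7), against 17.9%, at the ID2 promoter, at ID1 -9.0 and 7.8 kb and at ID4 -72.6 kb. Distal peaks made up 3 of them, of 19, against 23.6% of all distal peaks. Neither list skips a number around ID1, ID2 or ID3. The ID1 regions at -45.0 and 7.8 kb were the 2 ID regions that differed in the same way between genotypes in both treatments, in libraries that the 2 comparisons do not share.

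Of the 24 ID regions open in both rapamycin lists, 3 (12.5%) were weaker in shARID1A rapamycin, against 26.2% of all 36366 such regions, and 6 (25.0%) were stronger, against 13.9%. The difference (shARID1A minus shControl) was -17.3 at ID1 -42.4 kb and at ID2 3.4 kb, and -16.4 at ID1 -48.0 kb. It was 16.4 at ID3 31.0 kb and 13.2 at ID4 14.7 kb, and the third weaker region was ID2 -48.1 kb, at 39.3 in shARID1A rapamycin against 28.3 in shControl rapamycin. Of the promoters that could be compared, that of ID3 was stronger in shARID1A, with a difference of -10.8. The median difference was -1.12 points over the ID regions and 1.84 over all regions. With the strongest 44760 peaks of each list, 1 of 24 was weaker in shARID1A, against 19.3%, and 10 were stronger, against 21.2%, and ID2 -48.1 kb (a difference of 7.8) and ID4 14.7 kb (7.1) were no longer among the weaker ones. Shifted by at least 10 points in the same direction in both treatments, with lists of either length, were ID1 -42.4 kb and ID3 14.7 kb, stronger in shARID1A, and ID3 31.0 kb, weaker in shARID1A. The share of all regions that shifted in this way was not counted, so these regions are described only.

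Rapamycin was compared with DMSO within each genotype. In shControl cells, 5 of the 32 ID peaks of the DMSO list were lost in rapamycin (15.6%, 5.28 to 32.8), against 21.7% of all peaks. They were the ID2 promoter and the regions at ID1 -9.0 and 5.5 kb, ID3 2.9 kb and ID4 -72.6 kb, with 4 of 22 distal ID peaks among them, against 27.6% of all distal peaks. The strongest of the 5 was at ID1 5.5 kb, at 15.4 in shControl DMSO. Of the 28 ID peaks in shControl rapamycin, 2 were gained (7.14%, 0.877 to 23.5), against 18.5%, at ID2 -25.4 kb and ID4 14.7 kb. The peak at ID4 was 1 of 19 distal ID peaks, against 23.4% of all distal peaks. Ranks shifted to weaker in rapamycin at 2 of 26 regions (7.69%, against 20.5% of 40378) and to stronger at 5 (19.2%, against 14.9%). The weaker 2 were ID2 3.4 kb, with a difference of 31.7 points (rapamycin minus DMSO), and ID1 -45.0 kb, with 15.9. The stronger 5 included ID1 29.1 kb (-43.2), ID3 -17.6 kb (-21.5) and the ID4 promoter (-14.3). The median difference was 1.24 points over the ID regions and 0.84 over all regions. With the strongest 44760 peaks of each list, 2 of 24 were weaker, against 18.5%, and 6 were stronger, against 18.3%, and the regions at ID1 29.1 kb and ID3 -17.6 kb could not be compared, since their shControl DMSO peaks fell outside.

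In shARID1A cells, 4 of the 30 ID peaks of the DMSO list were lost in rapamycin (13.3%, 3.76 to 30.7), against 21.2% of all peaks. All 4 were distal, at ID1 1.9, 5.5 and 29.1 kb and ID2 -1.7 kb, out of 21 distal ID peaks, against 27.8% of all distal peaks. ID1 5.5 kb was thus lost in rapamycin in both genotypes, in separate pairs of libraries. It was the 1 ID region of 35 (2.86%) open in both DMSO lists and neither rapamycin list. In the whole study 1383 of 69838 regions (1.98%) had this pattern. Of the 28 ID peaks in shARID1A rapamycin, 2 were gained (7.14%, 0.877 to 23.5), against 19.3%, at ID4 -72.6 and -25.4 kb. Both were distal, out of 19, against 25.9% of all distal peaks, and both lie in intervals where shARID1A DMSO skips numbers. Ranks shifted to weaker in rapamycin at 3 of 26 regions (11.5%, against 16.5% of 35743) and to stronger at 3 (11.5%, against 14.2%). The weaker 3 were ID3 -8.8 kb (19.0 points, rapamycin minus DMSO), the ID2 promoter (15.0) and ID1 -9.0 kb (14.2), and the stronger 3 were ID1 -48.0 kb (-24.4), ID3 -17.6 kb (-17.2) and ID2 -48.1 kb (-14.5). The median difference was -2.16 points over the ID regions and 0.32 over all regions. With the strongest 44760 peaks of each list, 3 of 26 were weaker, against 15.0%, and 4 were stronger, against 16.0%. The knockdown and rapamycin comparisons share libraries with each other, so their counts are not independent.

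The region 7.8 kb downstream of ID1 was set beside all other regions with its pattern. In the whole study, 1265 regions (1.81%) were open in both shARID1A lists and neither shControl list, and 3648 (5.22%) were open in both shControl lists and neither shARID1A list. The ID genes held 1 of each. Ordered by the mean of the percent ranks in shARID1A rapamycin and shARID1A DMSO, the region downstream of ID1 came in position 1 of the 1265, with a mean of 13.7. The median of the 1265 was 76.8, so most were weak peaks, and 3 had a mean within the strongest 20%. The region next in order had DUX4L18 as its nearest gene (chromosome Y, 11324496 to 11324809), with 15.9 in shARID1A rapamycin and 16.9 in shARID1A DMSO. After it came regions nearest to AC118282.3 (chromosome 4, 49136787 to 49137316; 24.5 and 15.2), AC027124.1 (chromosome 3, 13461250 to 13461840; 28.0 and 21.5) and ARGLU1, a gene of a splicing-associated protein (chromosome 13, 106570443 to 106570769; 24.4 and 26.9), with values in the same order. ID1 was taken up because of this region, so its position among the 1265 is a description.

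**Figure D4:**
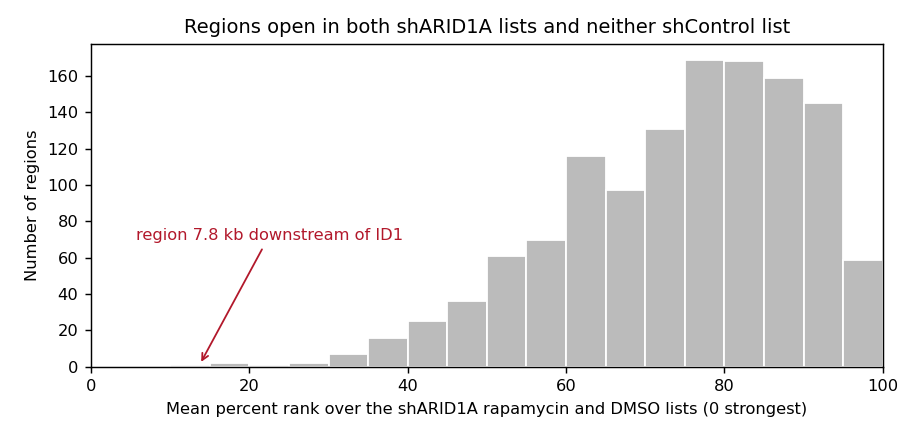
Number of regions (vertical axis) by mean percent rank over shARID1A rapamycin and shARID1A DMSO (horizontal axis, 0 strongest), for the 1265 regions open in both shARID1A lists and neither shControl list. The arrow marks the region 7.8 kb downstream of ID1 at 13.7, far from the median of 76.8.

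The genes that work with ID proteins were counted in the same lists. Of 60 such genes, 58 could be given a TSS. A gene outside the RefSeq promoter table was given one only if peaks of these lists named it. The genes counted, and the 18370 protein-coding genes beside them, are thus partly selected for having peaks. Peaks within 50 kb of the 58 genes added up to 215 in shARID1A rapamycin, 239 in shARID1A DMSO, 233 in shControl rapamycin and 240 in shControl DMSO. In DMSO, 23 of the 58 genes (39.7%) had fewer peaks in shARID1A than in shControl, against 30.8% of 18370 protein-coding genes, and 16 (27.6%) had more, against 22.6%. Under rapamycin, 22 (37.9%) had fewer in shARID1A, against 30.5%, and 13 (22.4%) had more, against 21.0%. With rapamycin in shControl cells, 18 (31.0%) had fewer, against 28.6%, and 15 (25.9%) had more, against 21.6%. With rapamycin in shARID1A cells, 22 (37.9%) had fewer, against 28.7%, and 6 (10.3%) had more, against 20.2%. Hepatocyte markers moved alongside in this comparison: of the 10 named above, 7 had fewer peaks in shARID1A rapamycin than in shARID1A DMSO and 0 had more, with sums of 47 and 56, and their part in the result was not tested. The log2 ratio of the sums lay between -0.15 and -0.01 in the 4 comparisons, and between -0.07 and -0.05 over all genes. For the pathway genes it changed sign with other settings for knockdown in DMSO and for rapamycin in shControl cells.

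BMP signalling genes come before the ID genes in the pathway. The promoter counts of this and the next paragraph stand beside those of all 18370 protein-coding genes with a TSS. Of these, 12543 had a promoter peak in shARID1A rapamycin, 12714 in shARID1A DMSO, 12590 in shControl rapamycin and 12512 in shControl DMSO. The 9 ligands and antagonists had promoter peaks at 7 genes in each of shARID1A rapamycin, shARID1A DMSO and shControl rapamycin and at 4 in shControl DMSO. The 3 without a promoter peak in shControl DMSO alone were BMP2, a ligand, and CHRD and GREM1, which encode secreted BMP antagonists. The BMP2 promoter stood at 36.5 in shARID1A rapamycin, 49.9 in shARID1A DMSO and 42.2 in shControl rapamycin, CHRD at 76.1, 76.3 and 62.3, and GREM1 at 93.1, 90.1 and 75.1, in that order. The CHRD promoter peak of shARID1A rapamycin does not overlap those of shARID1A DMSO and shControl rapamycin. CHRD had 6 peaks within 50 kb in shARID1A rapamycin, 9 in shARID1A DMSO, 5 in shControl rapamycin and 3 in shControl DMSO. The 9 receptors and co-receptors had promoter peaks at 6, 7, 8 and 7 genes in the same order. ACVRL1, a receptor of endothelial cells, had one in shControl rapamycin alone, at 86.6, and its peaks within 50 kb numbered 8 and 7 in shARID1A rapamycin and DMSO, against 10 and 9 in shControl rapamycin and DMSO. HJV, the BMP co-receptor hemojuvelin, had a promoter peak in every list except shARID1A rapamycin, at 70.3 in shARID1A DMSO, 57.5 in shControl rapamycin and 74.3 in shControl DMSO. Its peaks within 50 kb numbered 7 in shARID1A rapamycin, 6 in shARID1A DMSO and 7 in each shControl list. SMAD1, SMAD4, SMAD5 and SMAD9 had promoter peaks in all 4 lists. Of 7 other BMP and SMAD targets, HAMP, the gene of hepcidin, differed, with a promoter peak at 98.2 in shARID1A DMSO and 74.2 in shControl rapamycin and none in shARID1A rapamycin or shControl DMSO. Within 50 kb HAMP had 3 peaks in each list.

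Partners of ID proteins were counted next. The E protein genes TCF3, TCF4 and TCF12 had promoter peaks in all lists, and their peaks within 50 kb added up to 10 in shARID1A rapamycin, 12 in shARID1A DMSO, 13 in shControl rapamycin and 13 in shControl DMSO. Among 13 tissue bHLH genes, TAL1, a blood and vessel factor, had a promoter peak in both shARID1A lists, at 77.3 in rapamycin and 81.9 in DMSO, and in neither shControl list. Its peaks within 50 kb numbered 6 in each shARID1A list and 4 in each shControl list. TWIST1, a factor of mesenchymal cells, had one in shControl rapamycin at 93.4 and in shControl DMSO at 80.8, at positions that do not overlap, and in neither shARID1A list. ATOH1, a neural factor, lacked one in shControl DMSO alone and stood at 46.2, 61.2 and 50.8 in shARID1A rapamycin, shARID1A DMSO and shControl rapamycin. The 7 repressor bHLH genes, of the HES and HEY type, had promoter peaks in all lists. Of the 6 cell-cycle genes that ID and E proteins act on, CDKN1C, encoding a cyclin-dependent kinase inhibitor, lacked a promoter peak in shARID1A rapamycin and stood at 76.2, 93.6 and 73.9 in shARID1A DMSO, shControl rapamycin and shControl DMSO. Peaks within 50 kb of these 6 genes added up to 18 in shARID1A rapamycin, 24 in shARID1A DMSO, 25 in shControl rapamycin and 28 in shControl DMSO. Over all genes the sums were 61914, 64794, 64796 and 66850 in the same order. A peak near several genes counts for each in such sums.

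Counted over the 58 genes, 1 promoter peak was lost and 6 were gained in shARID1A against shControl in DMSO, beside 1.69% lost and 2.79% gained over all genes. Under rapamycin 5 were lost and 1 was gained, beside 2.18% and 1.92%. In shControl cells, 0 were lost and 6 gained with rapamycin, beside 1.93% and 2.36%, and in shARID1A cells 3 were lost and 0 gained, beside 2.38% and 1.45%. The gains with knockdown in DMSO and with rapamycin in shControl cells share the shControl DMSO list, which had no promoter peak at ATOH1, BMP2, CHRD, GREM1 or HAMP.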

How the data were processed

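The authors used BWA, MACS2 2.0 and the build GRCh38 (hg38), according to the submitters' processing notes. The sources used here do not give their settings, the handling of duplicates and of the transposase offset, or the read depth. Peaks were listed per library, 1 library per group, per the labels. Each peak carries a deposited score made by the authors on a scale that no source used here states, and it served only to rank peaks within a list. The other deposited columns (coordinates, annotation, nearest gene and the distance to it) are the authors' as well.

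The authors' nearest-gene names differ between lists for between 8.81% and 9.18% of regions whose centres agree within 50 bp, and their distances imply different TSS positions for ID2. Regions were therefore placed by coordinates, and distances were taken to the RefSeq TSS (GRCh38.p14). A peak was near a TSS if its centre lay within 1 kb of any RefSeq TSS, and distal otherwise, so peaks that the authors annotate as promoters of HM13-IT1, MIR3193 or ID2-AS1 could count as distal. Distances in the text are those of the region's centre, from which the peaks of single lists can differ slightly. For pathway, marker and all genes, a promoter peak had its centre within 1 kb of any known TSS of the gene. Genes with several TSS positions thus had more ways to be counted. The 50 kb windows used 1 TSS per gene, the RefSeq gene start or end that its strand gives. The strand came from the RefSeq promoter table for 15842 genes and from the authors' distances for 2528, of 20052 protein-coding genes. Genes outside that table were kept only if peaks of these lists named them and gave the strand. Shares of lost and gained peaks have exact (Clopper-Pearson) 95% intervals that cover counting error only and take peaks as independent, which neighbouring peaks need not be. With 1 library per group, no p-value was computed. Some marker genes are not reported here.

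Named items were all 4 members; every region that is a promoter, is open in 1 genotype only, is missing from or open in exactly 1 list, or is among the 3 strongest of its gene; list genes whose promoter peak differs between lists or whose peak number differs by 2 or more the same way in both treatments; and the 5 strongest regions open in both shARID1A lists only. The members, gene lists and rules were chosen with earlier results of these data known. Alternatives were the window, the overlap, equal list lengths, a stricter score limit, skipped peak numbers and promoter width. The overlap counting was tested on simulated peaks. Python 3.11.15, pandas 2.3.3, NumPy 2.4.6, SciPy 1.17.1 and matplotlib 3.10.9 were used.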

Additional observations from a re-analysis of the deposited data

Results flagged for a closer look

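The region 3.4 kb downstream of ID2 shifted in opposite directions with knockdown in the 2 treatments. Its percent rank in shARID1A minus that in shControl was 11.7 points in DMSO, a weaker rank in shARID1A, and -17.3 points in rapamycin, a stronger rank in shARID1A. With the strongest 44760 peaks of each list the differences were 6.6 and -25.0 points, so the shift in DMSO rests partly on the unequal length of the lists. The region 72.6 kb upstream of ID4 was open in shControl DMSO at 69.8 and not in shARID1A DMSO, and open in shARID1A rapamycin at 57.2 and not in shControl rapamycin. It was therefore lost with knockdown in DMSO and gained in rapamycin, and lost with rapamycin in shControl cells and gained in shARID1A cells. It lies in an interval where the shARID1A DMSO list skips numbers. With 1 library per group, neither difference was tested.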

How the results depend on the processing

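Counts of ID regions and of ID peaks lost or gained were recomputed with other windows, overlaps and list lengths, and counts of rank shifts with equal list lengths. Of 88 recomputed counts, 60 stayed within 1.5 times the reported one and 28 moved further. The other counts, among them genes with fewer or more peaks, were not recomputed. Requiring an overlap of 50% of the shorter peak gave 7 lost and 3 gained with rapamycin in shControl in place of 5 and 2, and left the other counts as they were. The window settings still kept regions that the authors named for an ID gene at any distance, ID4 -72.6 kb among them. With a 10 kb window there were 21 ID regions in place of 35, 11 open in all lists in place of 22 and 0 open in both shControl lists only in place of 1. The count lost with knockdown in rapamycin was then 1 in place of 4, and that gained with rapamycin in shControl cells 1 in place of 2. With a 100 kb window there were 60 regions and 37 open in all lists. Gained with knockdown in DMSO were then 5 in place of 3, lost with knockdown in rapamycin 9 in place of 4, gained with rapamycin in shControl 7 in place of 2 and gained with rapamycin in shARID1A 4 in place of 2. By the authors' nearest-gene name alone there were 16 regions, 7 open in all lists, and 0 open in both shARID1A lists only or in both shControl lists only, since the authors named the region 7.8 kb downstream of ID1 for MIR3193. By name, knockdown in rapamycin lost 0 and gained 2, rapamycin in shControl gained 1, and rapamycin in shARID1A lost 1 and gained 0. With the strongest 44760 peaks of every list, knockdown in DMSO gained 5 and rapamycin in shControl gained 4, and with the stronger 75% of each list rapamycin in shControl gained 4. Regions weaker by 10 points with knockdown were then, at equal lengths, 3 in DMSO in place of 5 and 1 in rapamycin in place of 3, and those stronger in rapamycin 10 in place of 6. Counting each skipped number as a peak left 2 lost with knockdown in DMSO in place of 4 and 0 gained with rapamycin in shARID1A in place of 2.

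The balance of lost and gained peaks turned over for knockdown in DMSO at equal lengths (3 lost, 5 gained) and with skipped numbers as peaks (2 lost, 3 gained), and for rapamycin in shControl with the 100 kb window (6 lost, 7 gained). For knockdown in rapamycin, reported as 4 lost and 4 gained, it went both ways. Gains led with the 10 kb window (1 lost, 4 gained) and by name (0 lost, 2 gained). Losses led with the 100 kb window (9 lost, 6 gained) and the stronger 75% of each list (5 lost, 3 gained). Of 12 recomputed log2 ratios for the pathway genes, the sign changed for knockdown in DMSO, at -0.01 as reported, to 0.11 with a 10 kb window and 0.16 at equal lengths, and for rapamycin in shControl, at -0.04 as reported, to 0.03 at equal lengths.

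Ranked among promoter peaks alone, the ID1 promoter stood at 23.7 in shARID1A rapamycin, 33.4 in shARID1A DMSO, 17.1 in shControl rapamycin and 41.1 in shControl DMSO, and it led the 4 ID promoters in each list. Ranked among distal peaks alone, the region 7.8 kb downstream of ID1 stood at 2.45 in shARID1A rapamycin and 3.76 in shARID1A DMSO. No paired analysis was possible because each group held 1 library and the labels give no replicate numbers, and for the same reason no replicate could be left out. Read depth was unknown, so a weak peak missing from a list was not shown to be closed.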

Other observations

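Names given by the authors differed from the positions for several ID regions. The strong region at -32.6 kb from the ID4 TSS was named for ID4 in shARID1A DMSO and shControl DMSO and for AL022068.1 in shARID1A rapamycin and shControl rapamycin, although it was open in all 4 lists. The region 3.2 kb upstream of ID2 was named for ID2 in shControl DMSO and for ID2-AS1 in the other lists. In the authors' deposited table, distances to ID2 imply a TSS at 8681983 in shARID1A rapamycin, 8682056 in shARID1A DMSO, 8681983 in shControl rapamycin and 8678845 in shControl DMSO. A search by the nearest-gene column alone returned 10 ID peaks in shARID1A rapamycin, 12 in shARID1A DMSO, 8 in shControl rapamycin and 14 in shControl DMSO, against 28, 30, 28 and 32 by name or position.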
